A study of Mus musculus with 3 samples.

Results

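Conventional dendritic cells (cDCs) were a small fraction of the leukocytes sorted from KP1 tumors. A barcode was counted as a cDC when it had at least 1 Flt3 unique molecular identifier (UMI, 1 captured RNA molecule) and at least 10 UMIs of H2-Aa plus H2-Ab1. It also needed fewer than 5 UMIs of C1qa, C1qb and C1qc, fewer than 3 of Cd79a, Cd79b and Ms4a1, fewer than 4 of 6 T cell receptor complex genes, fewer than 2 of Siglech, and fewer than 5 of Ccr7, Fscn1 and Ccl22. Among these cells, those with at least 1 UMI of Xcr1 or Clec9a were called cDC1 and the rest cDC2. These raw UMI counts are the measured values the members were chosen by. The rule gave 299 cDCs out of 71909 cells, of which 122 were cDC1 and 177 were cDC2. Levels of the genes in the rule are therefore descriptions and not findings.

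The cells came from B6129SF1/J mice, an F1 hybrid, that carried subcutaneous tumors of KP1, a mouse small-cell lung cancer line with mutant Rb and p53. Each mouse received 500000 tumor cells. Per the labels, 3 µg of cytokine was injected every second day from day 7 up to day 19, when the tumors were collected, although another passage of the study's text starts it earlier. The 3 groups, with 1 library each, were mono-IL-10 (labelled Supermono-10), an engineered monomeric IL-10; IL-10/2-Trikine, which joins mono-IL-10 to an IL-2 that binds IL-2Rβ without acting as an agonist; and the same Trikine given together with an antibody to PD-1, called the combination here. The antibody dose was 200 µg, given 4 times from day 7 to day 19. Only the combination carries the antibody in its title and treatment label, but the protocol text can be read as giving it to every group. The labels call the genotype wild-type and the cells T cells, although live CD45+ leukocytes of all kinds were sorted. How many mice went into a library is not given, and no untreated library was analysed here. With 1 library per group no test is possible, and each interval below is a 95% interval that covers counting error only, not the spread between mice or libraries.

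Conventional DCs take up antigen, process it and present it to T cells on MHC molecules, and their survival depends on the receptor tyrosine kinase encoded by Flt3. The cDC1 subset, which depends on Irf8 and Batf3, is known for taking up dead cells and for cross-presenting tumor antigen to CD8+ T cells, while cDC2, which are more varied, mainly prime CD4+ T cells. IL-10 acts on myeloid cells through Il10ra, Il10rb and STAT3, whereas IL-2 signals through Il2rb, Il2rg and STAT5.

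In every triplet of values here and below, the order is mono-IL-10, IL-10/2-Trikine, combination. The libraries kept 22235, 22707 and 26967 cells and held between 158570946 and 197176873 UMIs in all. The median kept cell had 4774, 5562 and 4273 UMIs, and the limits of the rule are raw UMI counts. The cDC shares given below fall in the same order as these medians. Apart from thinning, the part of depth in them was not tested. The median cDC1 had 12790, 10508.5 and 10056 UMIs in these libraries, and the median cDC2 had 9044, 7695.5 and 8507 UMIs. Pairs of libraries shared 137 to 180 barcode sequences among their kept cells and 0 among their cDCs.

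The receptors that define cDC1 here are Xcr1, the chemokine receptor for XCL1, and Clec9a, a lectin that recognizes actin exposed by dead cells. They set the call, and their promoters are shown as the sequences behind it. Both are the 250 bases before the RefSeq transcript start in GRCm38.p6, at chr9:123862030-123862279 on the minus strand for Xcr1 and at chr6:129408612-129408861 on the plus strand for Clec9a. Searched on both strands, neither window held TGANTCA, the letters of an AP-1 site, a pair of GAAA repeats with 2 bases between them (here called the ISRE core, for interferon-stimulated response element), or TTCNNNGAA, those of a STAT site, so there are no capitals.
Xcr1: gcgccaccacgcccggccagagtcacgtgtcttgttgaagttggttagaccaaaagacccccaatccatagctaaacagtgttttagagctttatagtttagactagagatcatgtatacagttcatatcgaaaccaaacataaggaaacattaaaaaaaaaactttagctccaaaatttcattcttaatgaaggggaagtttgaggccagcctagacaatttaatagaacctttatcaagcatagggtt
Clec9a: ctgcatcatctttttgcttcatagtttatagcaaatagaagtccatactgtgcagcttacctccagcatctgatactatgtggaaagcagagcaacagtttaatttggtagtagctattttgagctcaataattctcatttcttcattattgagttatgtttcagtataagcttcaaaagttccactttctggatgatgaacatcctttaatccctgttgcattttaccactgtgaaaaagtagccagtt
In the data, Xcr1 stood at 530, 528 and 451 counts scaled to 1000000 UMIs of the population (CPM) in cDC1, and Clec9a at 276, 284 and 214 CPM. Xcr1 was also seen in 817, 248 and 630 macrophages with C1q transcripts, at 38.5, 27.5 and 29.1 CPM against 17.4, 3.11 and 8.45 CPM in empty droplets.

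Genes that the rule did not use separated cDC1 from cDC2 in each library. Irf8, the cDC1 transcription factor, stood at 2462, 1801 and 1663 CPM in cDC1 against 340, 193 and 466 CPM in cDC2. Naaa, a lysosomal amidase, stood at 2517, 2221 and 1968 CPM against 604, 350 and 410 CPM. Wdfy4, which is required for cross-presentation, stood at 964, 1091 and 1004 CPM against 170, 214 and 251 CPM. For all 3 genes the lowest cDC1 library lay above the highest cDC2 library. Tlr3, the endosomal sensor of double-stranded RNA, stood at 260, 190 and 146 CPM against 15.8, 5.83 and 10.46 CPM, and Plpp1, a lipid phosphatase, at 168, 117 and 105 CPM against 1.97, 1.94 and 2.09 CPM, which is 1 UMI in each cDC2 pool. Cadm1, an adhesion molecule, stood at 463, 549 and 468 CPM against 55.3, 19.4 and 16.7 CPM. Btla, an inhibitory receptor, stood at 456, 381 and 346 CPM against 51.3, 71.9 and 46.0 CPM.

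Of 5060 genes measured in all 3 libraries, 27 (0.534%) were at least 4-fold higher in cDC1 than in cDC2 in every library and 109 (2.15%) at least 4-fold lower. Of the cDC1 identity genes left after removing Xcr1 and Clec9a, 14 could be measured, 9 were among those 27, and 14 were higher in cDC1 in all 3 libraries, against 26% of all genes at any size of difference. Of 13 cDC2 identity genes, 10 were at least 4-fold higher in cDC2 than in cDC1. The 17 listed cDC2 genes summed to 2594, 2660 and 2577 CPM in cDC2 and to 4048, 3377 and 3274 CPM in C1q macrophages. Their sum thus did not set cDC2 apart from macrophages. Batf3, needed for cDC1 development, was higher in cDC1 than in cDC2 in each library, at 170, 122 and 132 CPM against 59.2, 52.5 and 60.7 CPM. The shared cDC factor Zbtb46 stood at 104, 152 and 126 CPM in cDC1, 41.5, 52.5 and 46.0 CPM in cDC2 and 1.67, 2.42 and 2.59 CPM in C1q macrophages. The list of 10 shared cDC genes that holds it did not follow this. It summed to 4128, 3063 and 3112 CPM in cDC1, 2282, 1647 and 1682 CPM in cDC2 and 2407, 2144 and 2191 CPM in C1q macrophages.

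The cDC2 call took in varied cells. Cd209a, a C-type lectin of cDC2 and monocyte-derived cells, stood at 103, 202 and 335 CPM in cDC2 and at 0, 28.5 and 27.1 CPM in cDC1, and it was seen in only 14 of 54, 20 of 66 and 17 of 57 cDC2. Mgl2, another such lectin, stood at 154, 204 and 199 CPM in cDC2, and Sirpa, an inhibitory receptor for CD47, at 241, 187 and 178 CPM. Irf4, the cDC2 transcription factor, stood at 57.2, 38.9 and 43.9 CPM in cDC2 and at 0, 6.34 and 0 CPM in cDC1. Other listed cDC2 genes did not follow the call. Clec12a, an inhibitory lectin, was higher in cDC1, at 154, 173 and 122 CPM against 101, 56.4 and 29.3 CPM in cDC2, and Klf4, a transcription factor, was higher in cDC1 in the combination, at 123, 203 and 336 CPM against 367, 222 and 272 CPM. Notch2 stood at 123, 120 and 50.9 CPM in cDC1 against 120, 73.9 and 123 CPM, and Esam was at 0 in both subsets of every library. Clec4a4, a lectin of one cDC2 branch, was at 3.95, 1.94 and 6.27 CPM, which is 1 to 3 UMIs. A UMI of Cd209a, Mgl2, Clec10a or Clec4a4 was found in 26 of 54 cDC2 (48.1%, 34.3 to 62.2), 43 of 66 (65.2%, 52.4 to 76.5) and 29 of 57 (50.9%, 37.3 to 64.4). At least 3 UMIs of 6 monocyte genes, Ly6c2, Fn1, Vcan and Chil3 among them, were found in 14, 20 and 15 cDC2, and 18, 18 and 22 cDC2 had neither feature.

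Genes known from monocytes were among those that stood higher in cDC2. S100a4 was nearly level across the libraries at 1585, 1593 and 1587 CPM in cDC2 against 80.2, 117 and 95 CPM in cDC1. The 8 genes with the largest difference that held in all 3 libraries were, in order, Chil3, a chitinase-like protein, Thbs1, an adhesive glycoprotein, Clec4e, a receptor for microbial glycolipids, Clec4a1, Saa3, Nrg1, Clec4a3 and Fn1, fibronectin. Fn1 stood at 105, 97.2 and 102 CPM in cDC2 and at 0, 0 and 6.79 CPM in cDC1. Plac8, which monocytes carry, stood at 3821, 4045 and 3788 CPM in cDC2 and at 1328, 1221 and 2321 CPM in cDC1. The 8 monocyte markers summed to 5560, 5478 and 5252 CPM in cDC2, to 1748, 1719 and 2664 CPM in cDC1, and to 1248, 2233 and 1961 CPM in C1q macrophages. The cDC2 call thus held cells with monocyte markers, and whether these were cDCs or cells derived from monocytes was not tested.

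**Figure D1:**
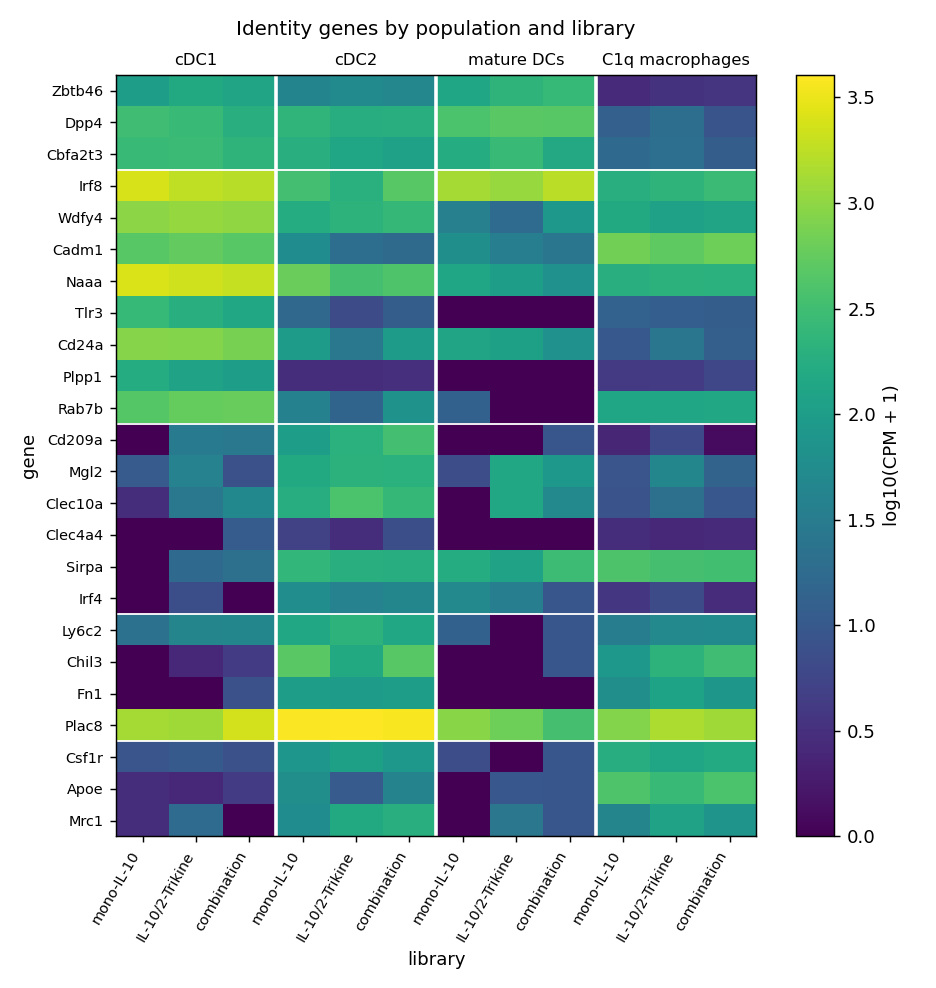
Color gives log10(CPM + 1) for identity genes (rows) in cDC1, cDC2, mature DCs and C1q macrophages (columns), 1 column per library. Irf8, Wdfy4, Naaa and Tlr3 are brightest in cDC1, Cd209a, Mgl2, Clec10a and Chil3 in cDC2, and Zbtb46 is low in C1q macrophages. The summed list of 10 shared cDC genes, not drawn, is not low there (2407, 2144 and 2191 CPM).

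Cells near the limits of the rule looked as follows, as a description with no test. In 3762 cells every limit but Flt3 was met, and Zbtb46 was seen in 4.52% of them, against 33.8% of 157 cDCs with 1 Flt3 UMI and 50.7% of 142 cDCs with 2 or more. Of those 3762 cells, 63 had an Xcr1 or Clec9a UMI (16, 23 and 24 by library). A cDC2 marker UMI was found in 678 cells without an Xcr1 or Clec9a UMI (189, 257 and 232). Some cDCs without a captured Flt3 molecule may thus lie outside the rule. The MHC class II limit left out 16 cells with 5 to 9 UMIs and let in 15 with 10 to 19. The C1q limit left out 5 cells with 5 to 9 UMIs, the maturation limit 6 cells with 5 to 9 UMIs, the T cell limit 5 cells with 4 to 7 UMIs, the B cell limit 4 cells with 3 to 5 UMIs, and the Siglech limit 8 cells with 2 to 4 UMIs. Just inside, 5 cDCs had 3 or 4 C1q UMIs, 2 had 3 or 4 maturation UMIs and 30 had 2 or 3 T cell UMIs. For the subset call, the median sum of other cDC1 identity genes was 11 UMIs in the 177 cells with no Xcr1 or Clec9a UMI, 47 in the 17 cells with 1 and 124 in the 105 cells with 2 or more.

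The other cDC1 identity genes took a median of 1.02%, 0.982% and 0.844% of the UMIs of a cDC1 and 0.132%, 0.111% and 0.145% of those of a cDC2. More UMIs fell on cDC1 than on cDC2 identity genes in 17 of 54, 19 of 66 and 18 of 57 cells called cDC2. The same held in 37 of 37, 55 of 58 and 23 of 27 cells called cDC1. At a limit of 0.5%, chosen after the values were seen, 3, 8 and 5 cells called cDC1 lay below and 4, 1 and 5 cells called cDC2 lay above. Without the cDC2 above that limit, Irf8 in cDC2 stood at 214, 176 and 361 CPM, and Cd24a, which stood at 96.7, 27.2 and 96.2 CPM before, at 46.2, 27.4 and 51.8 CPM. Both genes are part of the sum behind the limit, so lower values follow from it by construction.

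**Figure D2:**
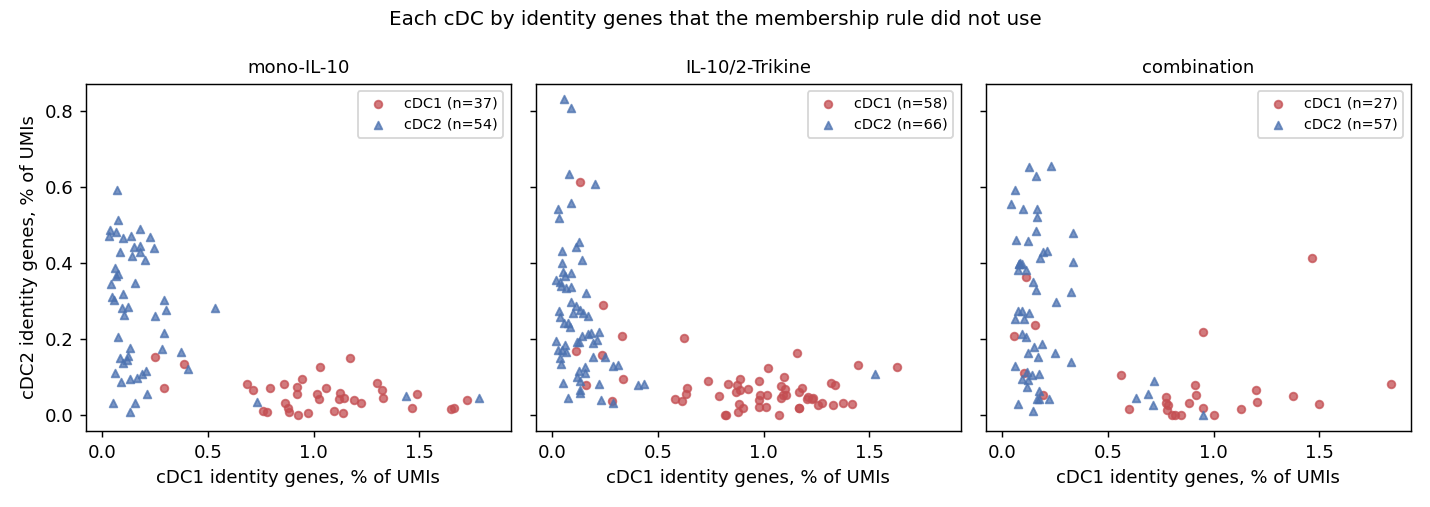
Each point is 1 cDC, placed by the percent of its UMIs in cDC1 identity genes (horizontal) and in cDC2 identity genes (vertical), genes of the rule left out, with 1 panel per library. Circles called cDC1 lie mostly above 0.5% on the horizontal axis, and triangles called cDC2 mostly below it, with 4, 1 and 5 triangles above.

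In the first comparison, IL-10/2-Trikine against mono-IL-10, cDCs made up 0.546% (0.454 to 0.651) of the cells with the Trikine and 0.409% (0.330 to 0.502) with mono-IL-10, a ratio of 1.33 (1.02 to 1.75). The cDC1 share was 0.255% (0.194 to 0.330) against 0.166% (0.117 to 0.229), a ratio of 1.53 (1.02 to 2.32). This direction was not stable. With cells thinned to 2000 UMIs, and shallower cells left out of both cDC1 and all cells, the ratio turned to 0.899 (0.459 to 1.76). That left 17 cDC1 in each library. The ratio was 1.31 (0.864 to 2.00) when cDC1 were called by the other identity genes. The cDC2 share was 0.291% against 0.243%, a ratio of 1.20 (0.836 to 1.71), and cDC1 made up 46.8% against 40.7% of cDCs, a ratio of 1.15 (0.843 to 1.57), which was below 1 under 3 of 9 alternatives, down to 0.833 after thinning. The interval of the cDC ratio spanned 1 under 4 of 7 alternatives and that of the cDC1 ratio under 6 of 9. The C1q macrophage share, for comparison, was 9.27% against 20.4%, and a change in any abundant cell type moves every other share.

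In the second comparison, the combination against IL-10/2-Trikine alone, which shares the IL-10/2-Trikine library with the first, the cDC share was lower. It was 0.311% (0.249 to 0.386) in the combination library, a ratio of 0.570 (0.433 to 0.752). The cDC1 share was 0.100% (0.0660 to 0.146), a ratio of 0.392 (0.248 to 0.619), with 27 cDC1 against 58. The cDC2 share was 0.211%, a ratio of 0.727 (0.510 to 1.04). Among cDCs, 32.1% (22.4 to 43.2) were cDC1 against 46.8% (37.8 to 55.9), a ratio of 0.687 (0.478 to 0.988). These ratios stayed below 1 under every alternative that was run, and under stricter ceilings on the other cell types' genes the cDC1 ratio was 0.205 (9 cells against 37). No alternative lowered the Flt3 limit. Cells with an Xcr1 or Clec9a UMI that missed only that limit numbered 16, 23 and 24, beside 37, 58 and 27 cells called cDC1. Their part in the lower cDC1 share was not tested. The interval of the cDC1 share of cDCs spanned 1 under 5 of 9 alternatives, reaching 1.58 after thinning, while those of the cDC and cDC1 shares of all cells stayed below 1. Mature DCs, the same cells with at least 5 UMIs of Ccr7, Fscn1 and Ccl22, numbered 17, 18 and 16, and their ratio of 0.748 (0.382 to 1.47) spanned 1. Over mono-IL-10 the combination gave ratios of 0.761 (0.566 to 1.02) for cDCs and 0.602 (0.366 to 0.988) for cDC1. For cDC2 the ratio was 0.870 and for the cDC1 share of cDCs 0.791, and both intervals spanned 1. The C1q macrophage share was 18.3% in the combination library against 9.27% with IL-10/2-Trikine alone. The part of that rise in the lower cDC shares was not tested.

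**Figure D3:**
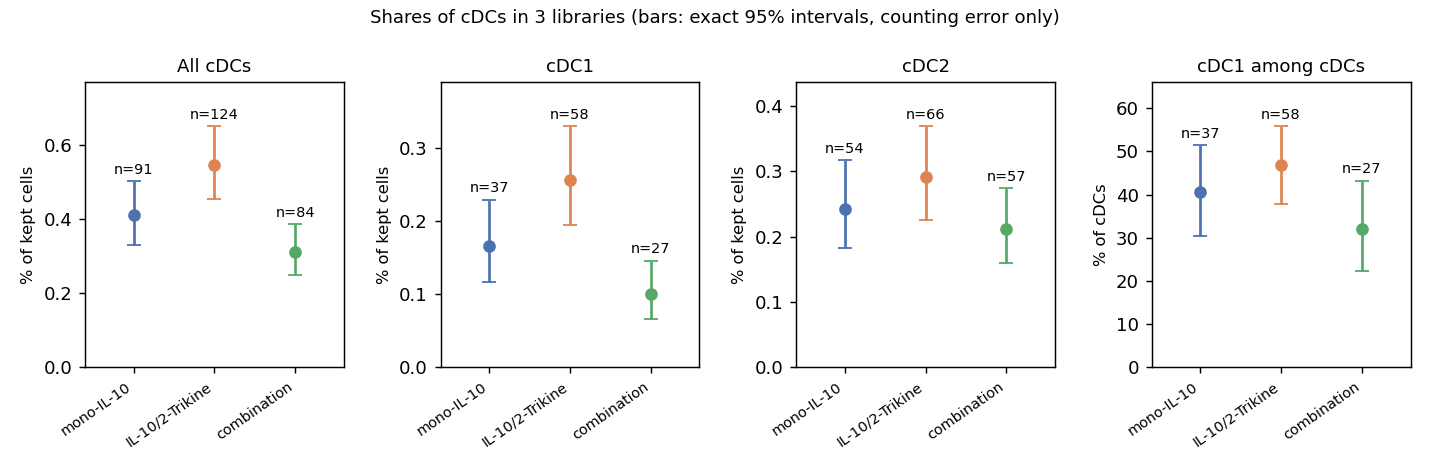
Points give the share of all cDCs, cDC1 and cDC2 among kept cells, and of cDC1 among cDCs, in percent, with exact 95% intervals (counting error only) and cell numbers, 1 library per group. The combination library has the lowest point in all 4 panels, and its cDC1 interval (0.0660 to 0.146) lies below that of the IL-10/2-Trikine library (0.194 to 0.330).

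Antigen presentation genes were measured at high levels in both subsets. The MHC class II chain H2-Eb1 stood at 8368, 8327 and 7920 CPM in cDC1 and at 7974, 6703 and 7663 CPM in cDC2, and the invariant chain Cd74 at 14871, 15184 and 13614 CPM and at 14474, 13070 and 14312 CPM. Ciita, the master regulator of class II transcription, stood at 211, 146 and 193 CPM in cDC1 and 233, 138 and 197 CPM in cDC2. In cDC2, 0 of 12 class II genes and 0 of 18 class I genes were past 2-fold in either comparison, which is near the background below. With IL-10/2-Trikine, 1 of 12 class II genes stood above a ratio of 1 to mono-IL-10, with a median log2 ratio of -0.22, and 6 of 18 class I genes did, with a median of -0.15, against -0.02 over all genes. In the second comparison 7 and 11 stood above 1, with medians of 0.03 and 0.05. The background against which this and all later counts in cDC2 are read was 2.88% of 6043 genes past 2-fold higher and 3.62% past 2-fold lower for IL-10/2-Trikine over mono-IL-10. It was 2.56% and 2.93% of 5905 genes for the combination over IL-10/2-Trikine. Above a ratio of 1 stood 2926 of 6043 genes in the first comparison and 2945 of 5905 in the second. "Past 2-fold" is a rule of size and not a test, and with 54 to 66 cells a library many such genes rest on a few cells.

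Among costimulatory ligands, Cd80 was past 2-fold in the first comparison. Cd80, a ligand of CD28 and CTLA-4, was at 90.8, 198 and 197 CPM in cDC2 and at 33.2, 65.0 and 81.4 CPM in cDC1. The mono-IL-10 library was the low one in both subsets. In cDC2 the ratio of IL-10/2-Trikine to mono-IL-10 was 2.18 (1.53 to 3.17), a log2 ratio of 1.13 that ranged from 1.08 to 1.93 over the alternatives. Thinned to 2000 UMIs per cell, 5 of 54 cDC2 (9.26%, 3.08 to 20.3), 24 of 66 (36.4%, 24.9 to 49.1) and 16 of 55 (29.1%, 17.6 to 42.9) had a Cd80 UMI, and 2 shallower combination cells were left out. The unthinned shares were 42.6%, 59.1% and 54.4%. In T cells of the same libraries the thinned shares were 2.49%, 3.72% and 3.14%.

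The remaining ligands gave a mixed picture. Tnfsf9, the ligand of 4-1BB, was lower with IL-10/2-Trikine, at 207, 87.5 and 64.8 CPM in cDC2, a ratio of 0.422 (0.291 to 0.604), and 1 cell held 33.3% of its UMIs in the mono-IL-10 library. Its log2 ratio was -1.86 to -0.59 over the alternatives, short of 2-fold under 2 of 13. Cd86, the other CD28 ligand, stood at 634, 704 and 755 CPM in cDC2 and 514, 474 and 560 CPM in cDC1. Cd40 stood at 90.8, 89.5 and 113 CPM in cDC2. Cd70, the ligand of CD27, had 0 UMIs in cDC1 and cDC2 of all 3 libraries. With a zero bounded by 3 counts, this allows a share of cDC2 with a UMI of up to 5.56%, 4.55% and 5.26%. Cd274, which encodes PD-L1, the ligand of the receptor that the antibody binds, stood at 324, 298 and 320 CPM in cDC2 and at 108, 136 and 109 CPM in cDC1. Pdcd1lg2, which encodes PD-L2, stood at 63.2, 107 and 119 CPM in cDC2. Cd200r1, an inhibitory receptor, was at 27.6, 60.3 and 18.8 CPM in cDC2, higher in the middle library in both comparisons, with 14, 31 and 9 UMIs.

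The receptor chains of the engineered cytokines were unevenly spread over the subsets. Il10ra stood at 154, 146 and 167 CPM in cDC2 and at 82.1, 72.9 and 71.3 CPM in cDC1, and Il10rb at 92.8, 73.9 and 119 CPM and at 48.9, 42.8 and 54.3 CPM. Il2rg, the common gamma chain, stood at 239, 241 and 224 CPM in cDC2 and at 17.6, 47.6 and 40.7 CPM in cDC1. Each of these was higher in cDC2 than in cDC1 in all 3 libraries, and none was past 2-fold between libraries in cDC2. Il2rb stood at 19.7, 19.4 and 18.8 CPM in cDC2, in 2, 8 and 3 cells, and at 3.91, 6.34 and 0 CPM in cDC1. The 9 NK cell markers summed to 430, 204 and 544 CPM in cDC2 and to 68.4, 122 and 176 CPM in cDC1. The part of NK cell transcripts in Il2rb and Il2rg was not tested. Il2ra, the high-affinity chain, had at most 2 UMIs in either subset of any library. Of 26 measured cytokine receptor, JAK and STAT genes, 19 were higher in cDC2 than in cDC1 in all 3 libraries, against 28.8% of all 5060 genes. Other lists leaned the same way, among them maturation with 9 of 10 genes and interferon-gamma response with 15 of 20.

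Genes that IL-10 and STAT3 are known to induce leaned the same way. All 11 that could be measured, of 12 listed, were higher in cDC2 than in cDC1 in each library, against the same 28.8% of all genes. Socs3, the feedback inhibitor, stood at 450, 334 and 347 CPM in cDC2 and 203, 85.6 and 84.8 CPM in cDC1. Bcl3, a nuclear IκB protein, stood at 150, 179 and 174 CPM and at 72.4, 49.1 and 88.2 CPM. Between libraries, 0 of 12 were past 2-fold in cDC2 in either comparison, and their medians were 0.20 and -0.06 on the log2 scale against -0.02 and -0.00 over all genes. Of 12 STAT5 response genes, 6 and 7 had enough UMIs in cDC2. Bcl2, a survival factor, was past 2-fold in the first comparison with 20 and 43 UMIs, a ratio of 2.12 (1.22 to 3.80). Its value in the combination was 25 UMIs. In the second comparison Socs1 was past 2-fold higher and Myc past 2-fold lower, the latter with 21 and 5 UMIs.

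The following receptor, signaling and chemokine genes were picked out after their values were seen. Csf2rb, the shared beta chain of the GM-CSF, IL-3 and IL-5 receptors, stood at 192, 306 and 543 CPM in cDC1 and at 318, 474 and 676 CPM in cDC2. In cDC2 the ratios were 1.49 (1.22 to 1.83) and 1.42 (1.20 to 1.69). Stat4, which transmits IL-12 and interferon signals, stood in cDC2 at 191, 331 and 353 CPM. Id2, a repressor needed for cDC development, was highest with mono-IL-10 in both subsets, at 2310, 1314 and 1561 CPM in cDC1 and 628, 249 and 287 CPM in cDC2. Free RNA in empty droplets held Id2 at 779, 718 and 866 CPM, above the cDC2 levels. Genes that cDCs should lack stood in cDC2 at a median of only 1.72%, 1.37% and 3.62% of their empty-droplet level. The part of free RNA in Id2 was not tested. Ccl4, an inflammatory chemokine, stood at 859, 460 and 255 CPM in cDC1 and at 537, 455 and 312 CPM in cDC2.

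With IL-10/2-Trikine, 174 genes were past 2-fold higher and 219 past 2-fold lower in cDC2 than with mono-IL-10. Of these, 51 and 68 were also past 2-fold the same way when cells with an Mki67 or Top2a UMI were left out, and 58 and 52 when only cDC2 with a cDC2 marker UMI were counted. Only 4656 and 4449 genes reached the UMI minimum under these 2 alternatives, against 6043, so some could no longer be compared. Cd209e, a lectin of the DC-SIGN family, had the highest ratio. It stood at 5.92, 115 and 25.1 CPM, but it came from 1, 6 and 5 cells, and 1 cell held 55.9% of its UMIs in the IL-10/2-Trikine library. Cd209d, a lectin of the same family with the fifth highest ratio, stood at 31.6, 124 and 43.9 CPM, a ratio of 3.94 (2.25 to 7.30). Clec10a, a lectin for galactose-type sugars and a cDC2 marker, stood at 174, 383 and 251 CPM, a ratio of 2.21 (1.71 to 2.87), in 21, 37 and 22 cells. Its log2 ratio went down to 0.71 and was short of 2-fold under 2 of 13 alternatives. For the last 2 genes the IL-10/2-Trikine library was the highest of the 3. Ramp3, which modifies calcitonin-family receptors, stood at 11.8, 60.3 and 66.9 CPM. Adgrl3, an adhesion receptor, stood at 5.92, 68.1 and 10.46 CPM, and Chl1, a neural adhesion molecule, at 13.8, 81.7 and 2.09 CPM, from 3, 6 and 1 cells. Cxcl11, a CXCR3 ligand, stood at 41.5, 89.5 and 113 CPM in 7, 9 and 7 cells, and its direction reversed under 3 alternatives. Of 16 genes named by rule in cDC2, the 7 that were short of 2-fold under at least 1 alternative were Ccl2, Cd200r1, Clec10a, Cxcl11, Ifi44, Ramp3 and Tnfsf9.

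Of 12 chemokine genes measured in cDC2, 5 were past 2-fold lower with IL-10/2-Trikine and 1 higher, with a median log2 ratio of -0.27, and over all cDCs 4 of 13 were lower and 0 higher, with a median of -0.54. The direction of these medians was not stable, since they were -0.73 to 0.96 in cDC2 and -0.94 to 0.05 over all cDCs across the alternatives, highest after thinning, which left 7 and 8 genes. In C1q macrophages 5 of 17 were past 2-fold higher and 0 lower, against 5.43% and 1.97% of 14042 genes. Among single genes, Saa3, an acute-phase protein, stood at 610, 91.4 and 60.7 CPM in cDC2, a ratio of 0.150 (0.108 to 0.204), in 14, 6 and 4 cells, and 1 cell held 42.1% of the UMIs in the mono-IL-10 library. Its log2 ratio of -2.74 was between -5.38 and -2.6 over the alternatives. Ccl2, a monocyte chemokine, stood at 211, 36.9 and 33.5 CPM, a ratio of 0.175 (0.101 to 0.287). This direction depended on which cells were counted, since the log2 ratio was 0.93 without cells that had 3 or more monocyte UMIs and 0.47 among cDC2 with a cDC2 marker. Nrp1, a co-receptor for semaphorins and VEGF, stood at 116, 31.1 and 37.6 CPM in 27, 10 and 11 cells, a ratio of 0.267 (0.143 to 0.470). Id3, an inhibitor of DNA binding, stood at 75, 23.3 and 48.1 CPM. Chil3 stood at 488, 156 and 460 CPM in 10, 6 and 6 cells. Ifi44, an interferon-stimulated gene, stood at 124, 60.3 and 37.6 CPM.

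Over all cDCs, 145 of 7996 genes (1.81%) were past 2-fold higher and 240 (3%) past 2-fold lower with IL-10/2-Trikine. Plet1, a surface protein of DCs and epithelia, stood at 50.1, 146 and 177 CPM, Ear2, an eosinophil-associated ribonuclease, at 20.6, 63.8 and 20.7 CPM, and AY761185 at 20.6, 62.9 and 76.3 CPM in 4, 9 and 8 cells. Cd209a over all cDCs stood at 51.1, 107 and 217 CPM, a ratio of 2.09 (1.5 to 2.94) here and of 2.04 (1.61 to 2.6) in the second comparison. Within cDC2 it stood at 103, 202 and 335 CPM, ratios of 1.97 and 1.65, so neither was past 2-fold there. Every ratio over all cDCs also carries the share of cDC1 among them, which was 40.7%, 46.8% and 32.1%. Of the genes named over all cDCs, 8 of 16 stayed past 2-fold under every alternative in the first comparison and 7 of 13 in the second. The heat shock genes Hspa1a and Hspa1b, which respond to protein damage and to tissue handling, were lower with IL-10/2-Trikine, at 281, 92.6 and 78.9 CPM and at 285, 80.4 and 107 CPM. The difference lay in cDC1, where Hspa1a stood at 432, 50.7 and 81.4 CPM, against 128, 144 and 77.4 CPM in cDC2. Without cells that had an Mki67 or Top2a UMI, the log2 ratio of Hspa1a was -0.42 in place of -1.60. Lrg1, a secreted glycoprotein, stood at 51.1, 19.2 and 24.6 CPM, and Gpr183, an oxysterol receptor that positions DCs, at 218, 107 and 162 CPM.

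Between the combination and IL-10/2-Trikine alone, 151 genes were past 2-fold higher and 173 past 2-fold lower in cDC2, of which 56 and 58 were also past 2-fold without the cells with an Mki67 or Top2a UMI. Without those cells 4714 genes reached the UMI minimum, against 5905. Genes that interferon-gamma is known to induce were higher as a group. Of 22 members measured, 4 were past 2-fold higher, 0 past 2-fold lower and 19 above a ratio of 1, against 2945 of 5905 genes above 1. Their median log2 ratio was 0.39 against -0.00 over all genes. In the first comparison 0 of 23 were past 2-fold, 8 were above 1, against 2926 of 6043 genes, and the median was -0.05. Over all cDCs the combination gave a median of 0.46, with 20 of 23 above 1, in a pool with fewer cDC1, whose level of these genes was lower. The background there was 2.22% of 7629 genes past 2-fold higher and 3.04% past 2-fold lower, with 3814 of 7629 above 1. The median stayed between 0.34 and 1.06 over the alternatives and was highest among cDC2 with a cDC2 marker UMI. C1q macrophages of the same 2 libraries gave 0.56, with 27 of 28 above 1, against 47.3% of 13940 genes above 1 and a median of -0.01 there, so the direction was not particular to cDCs. Of these 28, 1 was past 2-fold higher and 0 lower, against 1.55% and 3.21% of all genes there. The summed level of the list was 1838, 1841 and 2070 CPM in cDC1 and 4212, 3983 and 6040 CPM in cDC2.

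The members behind this are the following. Cxcl10, a CXCR3 ligand that draws T cells, stood at 480, 467 and 1293 CPM in cDC2, a ratio of 2.77 (2.38 to 3.23) for the combination. It was seen in 14, 19 and 21 cDC2, and 1 cell held 42.0%, 25% and 18.3% of its UMIs. In cDC1 it was at 3.91, 42.8 and 67.9 CPM. Thinned to 2000 UMIs, 18.5%, 19.7% and 29.1% of cDC2 had a Cxcl10 UMI against 4.30%, 4.62% and 7.50% of T cells, and the intervals of the last 2 cDC2 shares (10.9 to 31.3 and 17.6 to 42.9) overlap. The CPM thus differed more clearly than the share of cells. Socs1, the inhibitor of JAK signaling, stood at 77.0, 138 and 293 CPM in cDC2, a ratio of 2.12 (1.58 to 2.86), and at 90.0, 90.4 and 54.3 CPM in cDC1. Its log2 ratio in cDC2 was between 0.99 and 2.32 over the alternatives. Thinned, 11.1%, 12.1% and 29.1% of cDC2 had a Socs1 UMI against 13.6%, 17.7% and 21.8% of T cells, so the first 2 shares did not exceed those of T cells, which also express Socs1.

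The GTPases gave lower counts. Gbp5, a guanylate-binding protein that acts on intracellular pathogens, stood at 86.8, 99.2 and 201 CPM in cDC2, a ratio of 2.02 (1.43 to 2.90), in 16, 23 and 28 cells. Irgm1, an immunity-related GTPase, stood at 211, 128 and 268 CPM, a ratio of 2.09 (1.54 to 2.85), in 37, 36 and 36 cells, so its low value was that of the IL-10/2-Trikine library. Over the alternatives the log2 ratio was 0.46 to 1.76 for Gbp5, lowest without cells with an Mki67 or Top2a UMI, and 0.16 to 1.60 for Irgm1, lowest after thinning. All 4 list members past 2-fold, with Cxcl10 and Socs1, stayed above a ratio of 1, and each was short of 2-fold under at least 1 alternative. Irf1, an interferon-induced transcription factor, stood at 527, 554 and 713 CPM in cDC2, higher with the combination but short of 2-fold. Cxcl9, the other main CXCR3 ligand, stood at 255, 235 and 349 CPM. Ido1 had at most 2 UMIs in either subset of any library. For genes induced by type I interferon the median was 0.11, with 2 of 25 past 2-fold higher and 1 lower, and Zbp1, a nucleic acid sensor, stood at 150, 83.6 and 176 CPM. The direction of that median was not stable, since it was -0.39 to 0.27 over the alternatives. In the first comparison the median of the same list was -0.53 to -0.17 over the alternatives.

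**Figure D4:**
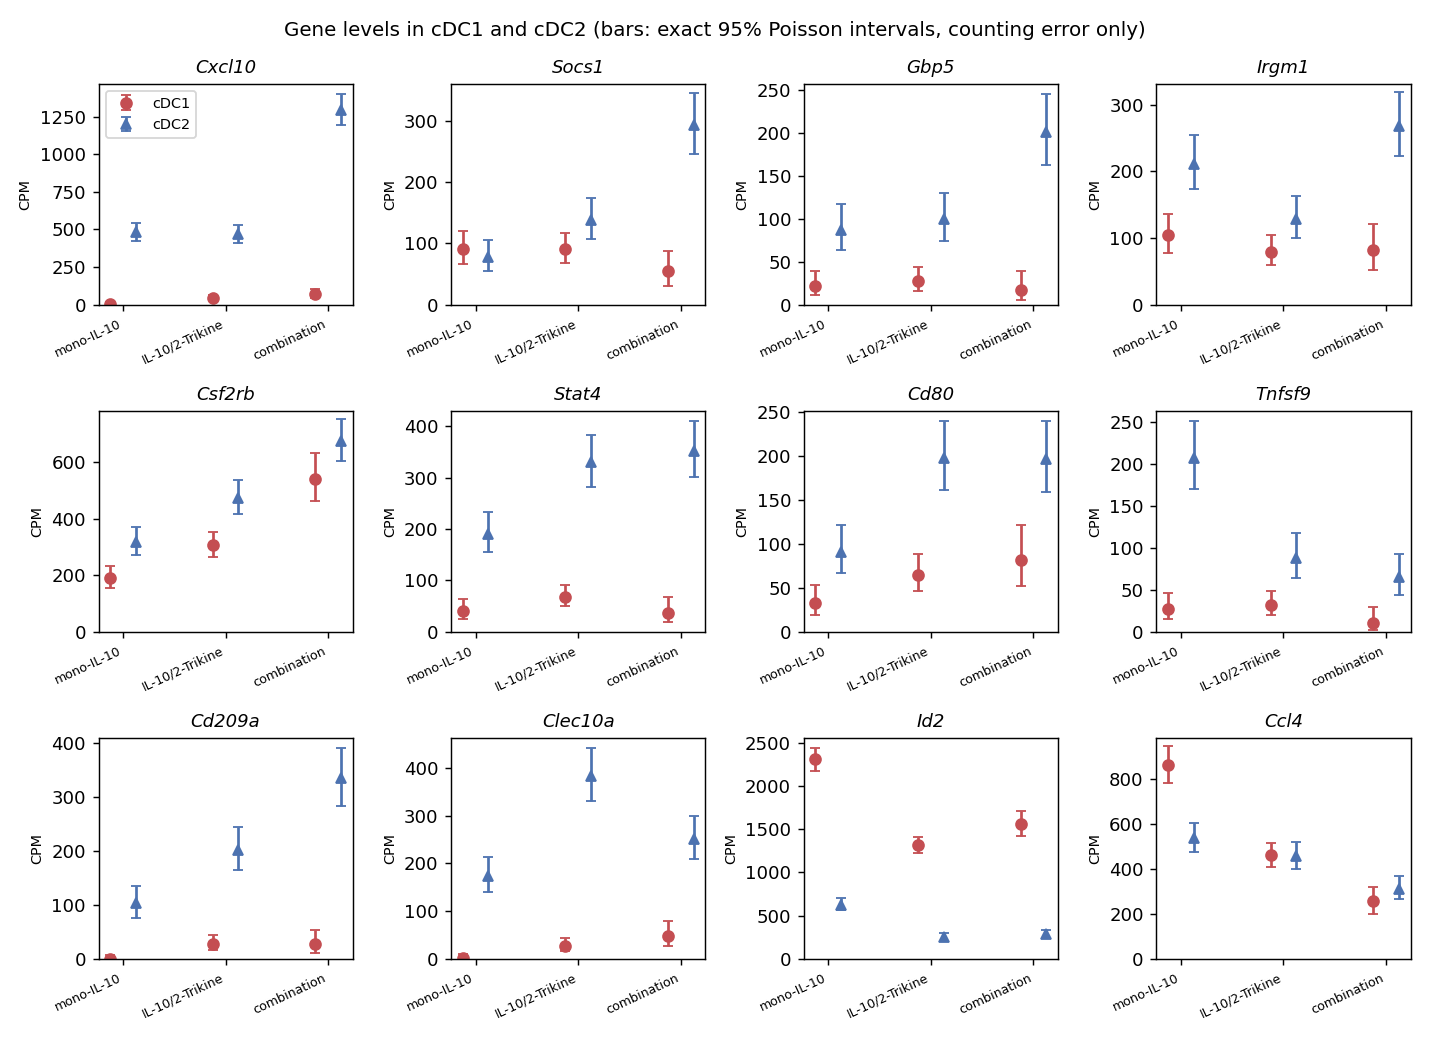
CPM of 12 genes in cDC1 (circles) and cDC2 (triangles) of the 3 libraries, with exact 95% Poisson intervals that cover counting error only. Cxcl10, Socs1 and Gbp5 in cDC2 are highest in the combination library (1293, 293 and 201 CPM), Csf2rb steps up over the libraries in both subsets, and Cd80 is lowest in the mono-IL-10 library.

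The promoters of the 4 interferon-gamma genes past 2-fold are shown because they were higher together. They were chosen after their values were seen, since the list median was not past 2-fold. Each is the 250 bases before the RefSeq start in GRCm38.p6, and capitals mark matches to the ISRE core, TTCNNNGAA or TGANTCA on either strand. The windows are chr5:92348890-92349139 (minus strand) for Cxcl10, chr16:10785537-10785786 (minus) for Socs1, chr3:142496684-142496933 (plus) for Gbp5 and chr11:48871421-48871670 (minus) for Irgm1.
Cxcl10: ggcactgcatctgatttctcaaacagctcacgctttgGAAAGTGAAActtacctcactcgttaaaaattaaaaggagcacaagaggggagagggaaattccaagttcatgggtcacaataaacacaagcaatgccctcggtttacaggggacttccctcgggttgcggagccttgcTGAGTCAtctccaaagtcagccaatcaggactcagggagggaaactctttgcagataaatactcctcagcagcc
Socs1: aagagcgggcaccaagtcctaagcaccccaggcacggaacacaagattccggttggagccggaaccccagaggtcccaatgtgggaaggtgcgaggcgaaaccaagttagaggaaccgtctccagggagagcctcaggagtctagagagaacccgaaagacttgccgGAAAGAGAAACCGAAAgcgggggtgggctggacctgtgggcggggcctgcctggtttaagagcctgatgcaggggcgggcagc
Gbp5: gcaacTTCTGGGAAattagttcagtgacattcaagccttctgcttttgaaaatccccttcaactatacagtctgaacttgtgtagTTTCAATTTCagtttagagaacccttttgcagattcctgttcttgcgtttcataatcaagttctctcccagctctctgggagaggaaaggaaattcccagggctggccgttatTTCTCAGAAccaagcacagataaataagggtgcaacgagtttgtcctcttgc
Irgm1: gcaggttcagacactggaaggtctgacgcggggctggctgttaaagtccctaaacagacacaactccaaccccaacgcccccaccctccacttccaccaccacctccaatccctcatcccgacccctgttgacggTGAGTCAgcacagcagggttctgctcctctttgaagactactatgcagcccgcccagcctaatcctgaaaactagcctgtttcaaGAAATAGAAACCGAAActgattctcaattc
All 4 windows held the ISRE core. Matches began 213 bases before the start in Cxcl10, 83 and 77 in Socs1, where they overlap, 165 in Gbp5, on the opposite strand, and 30 and 24 in Irgm1, where they also overlap. Gbp5 also held TTCNNNGAA at 245 and 52 bases, and Cxcl10 and Irgm1 held TGANTCA at 74 and 115 bases. The ISRE core was in 11 of 19 promoters (57.9%) of the 17 list genes that matched RefSeq, against 978 of 32851 promoters of the same length (2.98%). TTCNNNGAA was in 47.4% against 7.02%, and TGANTCA in 15.8% against 6.75%. Among genes at least 4-fold higher in cDC1, 1 of 26 promoters held the ISRE core and 0 held either other motif, and among genes at least 4-fold lower in cDC1 the shares over 105 promoters were 9.52% for the ISRE core, 12.4% for TTCNNNGAA and 8.57% for TGANTCA. A match is a description of the letters and not evidence of binding.

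Other genes higher with the combination were less alike. Il1rap, a co-receptor for IL-1 and IL-33, stood at 23.7, 11.7 and 71.1 CPM in cDC2, a ratio of 6.09 (2.53 to 17.8), in 9, 6 and 13 cells. Taf4b, a subunit of a transcription initiation factor, stood at 11.8, 11.7 and 66.9 CPM, and 1 cell held 46.9% of its UMIs in the combination library. Its direction reversed to a log2 ratio of -0.59 among cDC2 with a cDC2 marker UMI. Cd24a, a glycoprotein that is high in cDC1, stood at 96.7, 27.2 and 96.2 CPM in cDC2, a ratio of 3.53 (1.91 to 6.96). Irf8 in cDC2 stood at 340, 193 and 466 CPM, a ratio of 2.42 (1.90 to 3.10). For both genes the IL-10/2-Trikine library was the low one, and Cd24a in the combination was near its mono-IL-10 level. Without the cDC2 above the 0.5% limit of cDC1 identity genes, 5 with the combination and 1 with the Trikine alone, the ratio of Cd24a was 1.89 (0.934 to 3.98), no longer past 2-fold, and that of Irf8 2.05 (1.57 to 2.68). Both genes are part of the sum behind that limit. For Chil3 1 cell held 66.4% of the UMIs in the combination library. Il4i1, an amino acid oxidase, stood at 21.7, 44.7 and 94.1 CPM in 4, 7 and 6 cells, and its log2 ratio reversed to -0.48 without cells with an Mki67 or Top2a UMI.

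The genes lower with the combination in cDC2 included 4, among the 5 lowest, that stood high in the IL-10/2-Trikine library alone. Chl1 had 1 UMI left, a ratio of 0.0256 (0.000633 to 0.151), which thinning moved from a log2 ratio of -5.29 to -0.31. Adgrl3 had a ratio of 0.154 (0.0470 to 0.394) and Cd209e one of 0.219 (0.107 to 0.411). Ear2 stood at 23.7, 70.0 and 18.8 CPM. In the first comparison Chl1, Adgrl3 and Cd209e were also named in cDC2, and Ear2 over all cDCs. Since the comparisons share a library, 1 high library suffices for both. C5ar1, the receptor for the complement fragment C5a, stood at 45.4, 50.6 and 8.37 CPM, in 7, 9 and 2 cells, and its log2 ratio of -2.6 was -0.33 without cells that had 3 or more monocyte UMIs. Ccr1, a receptor for inflammatory chemokines, stood at 113, 144 and 43.9 CPM, in 20, 28 and 12 cells, a ratio of 0.305 (0.179 to 0.501). Of 17 genes named by rule in cDC2 in this comparison, 4 stayed past 2-fold under every alternative that gave a value, Adgrl3, Cd200r1, Cd209e and Il1rap, against 9 of 16 in the first. Over all cDCs the named genes on the lower side were Chsy3, a chondroitin synthase, at 53.0, 79.5 and 16.8 CPM in 24, 37 and 9 cells, Hdac9, a histone deacetylase, at 152, 257 and 82.8 CPM, against 67.1, 52.5 and 46.0 CPM within cDC2, and Lima1, an actin-binding protein, at 41.3, 71.6 and 24.6 CPM. Ccl2 over all cDCs stood at 189, 73.4 and 25.9 CPM. Named genes on the higher side over all cDCs, beside Cxcl10, Chil3 and Il4i1, were Abca13 at 44.2, 21.8 and 76.3 CPM, in 7 cells of each library, and Thbs1 at 46.2, 26.2 and 89.3 CPM, in 10 cells of each.

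Cytokine transcripts were few apart from Il1b. Il1b stood at 4327, 5075 and 3388 CPM in cDC2 and at 1183, 1522 and 1798 CPM in cDC1. Il12b, the IL-12 subunit for which cDC1 are known, had UMIs in 3, 0 and 1 cDC1 and in 1, 0 and 1 cDC2. It was not detectable at this depth in the IL-10/2-Trikine cDC1. There, with a zero bounded by 3 counts, 0 of 58 cells allows a share of cells with a UMI of up to 5.17%. Il10 itself was in 2, 1 and 1 cDC2 and in 0 cDC1 of any library. Tnf stood at 68.4, 11.1 and 6.79 CPM in cDC1 and at 41.5, 13.6 and 16.7 CPM in cDC2, highest in the mono-IL-10 library in both. Il18 stood at 106, 71.3 and 40.7 CPM in cDC1.

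Cell cycle genes differed between the phases in cDC2 in the first comparison. In these cells, 6 of 15 S phase genes were past 2-fold higher with IL-10/2-Trikine, 14 were above a ratio of 1, and the median was 0.83. Of 21 G2/M genes, 10 were past 2-fold lower, 0 were above 1, and the median was -0.96. Over all genes 2926 of 6043 stood above 1. Over all cDCs 0 of 22 S phase genes were past 2-fold, 12 were above 1, against 3831 of 7996 genes, and the median was 0.09. That median was 0.60 without very deep cells and 0.81, over 9 genes, without cells with an Mki67 or Top2a UMI. There the G2/M median was -0.92, with 10 of 25 past 2-fold lower. In the second comparison both were lower, with medians of -0.83 over 15 S phase genes and -0.48 over 9 G2/M genes. The summed S phase level was 531, 945 and 581 CPM in cDC2 and 1576, 1221 and 1099 CPM in cDC1, and the G2/M level was 1707, 716 and 500 CPM in cDC2 and 1707, 1169 and 1147 CPM in cDC1.

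Few cells carried these sums. The 3 cells with the most G2/M UMIs held 56.0%, 48.4% and 59.4% of them in cDC2 and 51.1%, 48.4% and 79.0% in cDC1. Ube2c, a mitotic ubiquitin enzyme, stood at 184, 27.2 and 12.5 CPM in cDC2, and Mcm6, a replicative helicase subunit, at 11.8, 42.8 and 33.5 CPM in 4, 11 and 10 cells. The share of cells with an Mki67 or Top2a UMI was 35.2% (22.7 to 49.4), 27.3% (17.0 to 39.6) and 31.6% (19.9 to 45.2) in cDC2 and 48.6% (31.9 to 65.6), 37.9% (25.5 to 51.6) and 40.7% (22.4 to 61.2) in cDC1, so these intervals overlap. Thinning left 1 S phase and 2 G2/M genes and leaving out cells with an Mki67 or Top2a UMI left 2 G2/M genes, too few for a median. Under the other alternatives in the first comparison the S phase median was 0.68 to 0.95 and the G2/M median -1.75, among cDC2 with a marker UMI, to -0.53. In the second comparison the G2/M median was -1.16 with strict ceilings, over 6 genes. In C1q macrophages the medians of the first comparison were 0.31 and 0.22, with 25 of 25 and 25 of 26 genes above 1, against 54.4% of 14042 genes above 1 and a median of 0.03.

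**Figure D5:**
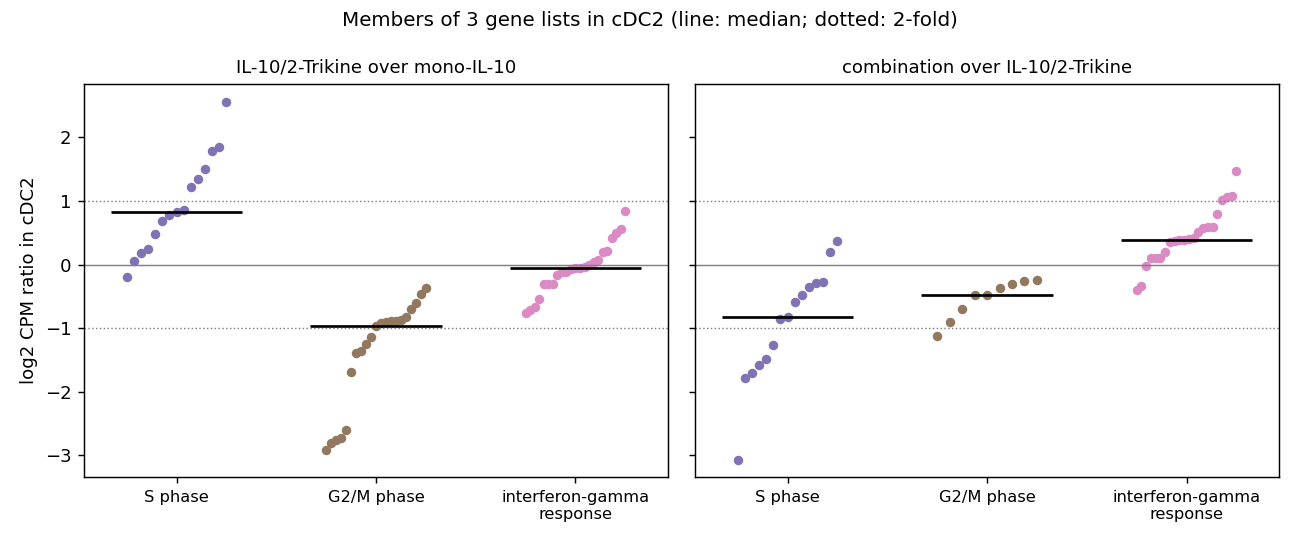
Each point is the log2 CPM ratio of 1 gene in cDC2, for 3 gene lists and both comparisons; the black lines are medians and the dotted lines mark 2-fold. S phase genes lie mostly above 0 on the left (median 0.83) and below it on the right (-0.83), G2/M genes lie below 0 in both, and interferon-gamma genes lie around 0 on the left (-0.05) and mostly above it on the right (0.39).

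Markers of other cells were measured in the cDCs themselves. The 8 macrophage markers summed to 17.6, 41.2 and 20.4 CPM in cDC1 and to 495, 490 and 517 CPM in cDC2, against 2035, 1803 and 1987 CPM in C1q macrophages. Apoe, one of them, stood at 59.2, 9.72 and 39.7 CPM in cDC2. The 8 T cell markers summed to at most 52.5 CPM in either subset, and the 4 mast cell and basophil markers to 0 in cDC2. The 9 NK cell markers summed to 430, 204 and 544 CPM in cDC2, with Gzma at 237, 99.2 and 274 CPM and Gzmb at 120, 38.9 and 167 CPM, while empty droplets held Gzmb at 1192, 2679 and 2954 CPM. With free RNA subtracted, 177 genes were past 2-fold higher and 212 lower in cDC2 in the first comparison, and 142 and 177 in the second, each within 1.5 times the count without subtraction. The part of NK cell transcripts in the cDC2 results was not tested. The 7 neutrophil markers summed to at most 71.9 CPM, the 9 KP1 tumor cell markers to at most 58.6 CPM, the 7 B and plasma cell markers to at most 199.8 CPM and the 7 plasmacytoid DC markers to at most 338 CPM in either subset. Genes that cDCs should lack stood in cDC2 at a median of 1.72%, 1.37% and 3.62% of their level in empty droplets.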

How the data were processed

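Single-cell RNA sequencing (10x 3′ v3.1) was run by the authors on live CD45+ cells from KP1 tumors, 1 library per group, grouped here by sample titles and treatment labels. The deposited matrices hold raw UMI counts per gene and barcode, empty droplets included, over 33696 genes. The file headers name Cell Ranger 8.0.0 and the methods another version, and the builds named by the submitters' processing notes (mm10) and the methods differ, so no coordinates were taken from the files. Intronic reads were included by the authors per the methods, which raises unspliced RNA of long genes.

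A barcode was kept if it had 200 or more detected genes and no more than 20% of its UMIs from mitochondrial genes. No doublet caller was run, and the ceilings of the rule act on mixed cells only in part. Counts of a gene were summed over the cells of a population in a library and scaled to CPM. Genes with at least 20 UMIs in a pair of libraries were compared, and a zero in a library was set to 3 counts for a bound. Shares carry Clopper-Pearson intervals, ratios of shares log intervals, and CPM ratios exact conditional binomial intervals, at 95%, for counting error only, since UMIs of 1 library are not biological replicates. No batch or replicate term could enter, and no test was run. Because cDC1 numbered under 50 cells in 2 libraries (37 and 27), gene ratios are given for cDC2 and all cDCs, and cDC1 as levels.

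Genes are named as the 5 highest and 5 lowest ratios per comparison among genes with at least 50 CPM, a UMI in 5% of cells and 2 times the level in empty droplets (barcodes of 5 to 100 UMIs) in the higher library, without genes of the rule and without mitochondrial, ribosomal protein, hemoglobin, antigen receptor and sex chromosome marker genes. Members of the 20 gene lists past 2-fold and the identity, costimulatory and receptor genes are named beside them, and a few list members are not reported here. The cDC rule and all lists were chosen with earlier results of these data known. Mature DCs and C1q macrophages (at least 5 C1q UMIs) served for comparison, and T cells (at most 2000 per library) for the background of shares. Promoters come from RefSeq tables of GRCm38.p6.

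Alternatives covered scaling, gene minimums, free RNA, thinning to 2000 UMIs, stricter ceilings, other membership limits and, added after the data were seen, equal weight per cell, cDC2 with a cDC2 marker UMI (Cd209a, Mgl2, Clec10a or Clec4a4), cells with 3 or more monocyte UMIs left out, the top cell of a gene left out, and cDC1 called by other identity genes. A changed gene minimum leaves the ratio of a single gene as it was by construction. Such values are among the alternatives counted for named genes. Scripts were tested on simulated data and used Python 3.11.15, numpy 2.4.6, scipy 1.17.1, pandas 2.3.3, matplotlib 3.10.9, R 4.3.3 and edgeR 4.0.16 (for TMM factors of the counts only).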

Additional observations from a re-analysis of the deposited data

How the results depend on the processing

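No paired analysis was possible because each group has 1 library, and for the same reason no library could be left out and no test could be run. Gene comparisons in cDC1 were not run, since 2 libraries held 37 and 27 such cells. Of 68 values of share ratios under alternatives, 64 stayed within the counting interval. With cells thinned to 2000 UMIs, the cDC1 ratio of IL-10/2-Trikine to mono-IL-10 reversed to 0.899 and the cDC1 share of cDCs also turned below 1, to 0.833. Strict ceilings also capped the NK cell genes Ncr1, Klrb1c and Gzma and the neutrophil genes S100a8 and S100a9. They asked for fewer than 2 T cell UMIs, and the 30 cDCs with 2 or 3 were split 3, 13 and 14 over the libraries. NK cell markers summed to 3128, 8509 and 10546 CPM in empty droplets. With strict ceilings the ratios of the combination to IL-10/2-Trikine moved to 0.375 for cDCs and 0.205 for cDC1. The cause was not tested.

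Counts of genes past 2-fold moved with the UMI minimum, thinning and weighting, and the cause was not tested. With at least 50 UMIs per gene, 37 were higher and 53 lower in cDC2 in the first comparison and 37 and 27 in the second, and over all cDCs 38 and 67, then 46 and 61. With at least 5 UMIs they were 589, 949, 696 and 741 in cDC2 and 554, 758, 592 and 777 over all cDCs. Thinned, they were 102, 54, 52 and 65 in cDC2, and over all cDCs 88 were lower in the first comparison and 72 higher and 114 lower in the second. Equal weight per cell, chosen after seeing the data like the marker, monocyte, top-cell and cDC1 identity alternatives, gave 241 higher in cDC2 in the second. Of the main genes, 2 higher and 6 lower were past 2-fold after thinning in the first comparison in cDC2. Only 1257 genes reached the UMI minimum there, against 6043 before thinning, so many could no longer be compared. The rule was also applied again to the thinned counts with its limits unchanged, so the cells counted differed too. Genes higher made up 44.3% of the calls in cDC2 in the first comparison and 65.4% after thinning. In the second they made up 46.6%, 57.8% at 50 UMIs and 34.1% with strict ceilings. Over all cDCs in the first they made up 37.7% and 55.1% after thinning. Both scalings moved the median of all genes by less than 0.1 on the log2 scale.

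Of 736 values for named genes, 632 stayed within the counting interval and 11 reversed, all listed here as log2 ratios. Cxcl11 reversed to -0.78 with strict ceilings, -0.92 thinned and -0.69 among cDC2 with a marker UMI. Ccl2 in cDC2 reversed to 0.47 among those cells and 0.93 without monocyte gene cells. Taf4b reversed to -0.59 among cDC2 with a marker UMI, and Il4i1 in cDC2 to -0.48 without cells with an Mki67 or Top2a UMI. Over all cDCs thinning reversed AY761185 to -0.68, Gpr183 to 0.32, Cd209a in the second comparison to -0.15 and Lima1 to 0.85.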
